A study of Mus musculus with 42 samples.

Results

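The 10 genes described here encode the IL-17 and IL-22 cytokines of the gut and the receptor chains that bind them. They were taken by name from the 12 deposited expression tables of the series, which together hold 19206 gene names: the ligands Il17a, Il17f, Il17c and Il22, the receptor chains Il17ra, Il17rc, Il17re, Il22ra1 and Il10rb, and Il22ra2, which encodes a soluble receptor. The rule itself is by name and sets no threshold on a value. Levels are given as normalised read counts per library, and each knockout or cytokine group was compared with the control group of its own table.

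IL-17A and IL-17F are secreted mainly by T helper 17 cells, gamma-delta T cells and type 3 innate lymphoid cells (ILC3), and signal through a complex of IL-17RA and IL-17RC that recruits the adaptor Act1 and leads to NF-kB activity. IL-17C is made mainly by epithelial cells themselves and signals through IL-17RA paired with IL-17RE. IL-22 comes from the same lymphoid cells and acts on cells that carry IL-22RA1 together with the shared chain IL-10RB, through JAK and STAT3; IL-22RA2 (IL-22 binding protein) is secreted, mainly by dendritic cells and eosinophils in the gut, and captures IL-22. In the colon these cytokines act on the epithelium, where they induce antimicrobial proteins and chemokines and influence mucus.

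The sorted cells came from the proximal and distal colon of mice 30 days after tamoxifen, with 2 libraries per group. All of these mice, controls included, carried Gli1CreERT2 and received tamoxifen. Gli1-positive stromal cells were sorted by the tdTomato reporter from control mice (GWTT), from mice with a loxP-flanked Smad4 gene (GS4T) and from mice with a loxP-flanked Alk3 gene (GA3T); Smad4 transmits BMP and TGF-beta signals, and Alk3, encoded by Bmpr1a, is a BMP receptor. Goblet cells were sorted by Muc2-mCherry from the corresponding genotypes (GWTM2, GS4M2 and GA3M2), and since Gli1 marks stromal cells, the deletion was made outside the goblet cells. Colonic organoids from wild-type mice were left untreated (Control) or received 10 nM of IL-1 alpha with IL-1 beta (IL-1 below) or 10 nM IL-17A for 12 h or 72 h, with 3 libraries per group. An organoid grown this way holds epithelial cells without stroma or immune cells. Nothing in the labels says whether replicates came from separate mice or cultures, so p-values measure only the spread between these libraries.

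Several facts about the libraries bear on every result below. The libraries held 14222902 to 23686940 reads in named genes. GS4 and GA3 were compared with the same control libraries, and IL-1 and IL-17A shared their controls at each time. Among the organoids, Control 12 h replicates 2 and 4 held the same reads as Control 72 h replicates 1 and 4 (1 of 14734 genes differed), so the 6 control entries are 4 libraries and the 12 h and 72 h comparisons are not independent. The group headings of the proximal GS4M2 table are exchanged in another copy of that table; the deposited column names were used here because their control columns held the same reads as those of the GA3M2 table, and with the other headings each GS4M2 proximal difference would change sign. Smad4 was lower in the GS4T cells in the proximal colon (770 against 1638 normalised counts, log2 fold change −1.09, limma adjusted p = 0.0101) and lay at −0.96 in the distal colon (926 against 1742, limma adjusted p = 0.0424). Bmpr1a lay at −0.61 and −0.69 in the proximal and distal GA3T cells (limma adjusted p = 0.120 and 0.101), a measure that includes reads outside a deleted stretch. Gli1 itself held 621 to 1671 reads in 10 of the 12 stromal libraries but 24 in GS4T proximal replicate 2 and 42 in GA3T proximal replicate 2, so member results of the proximal groups are also given without them where the values allow. Leaving out 1 of 2 libraries leaves a group of 1, which is then assumed to vary like the other group, and such a fit calls another share of all genes than the full one; that share is given beside the calls it touches. Stromal markers were abundant in all 12, including these, and goblet markers in all 12 Muc2-mCherry libraries.

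In control cells the receptor chains Il17rc, Il10rb and Il17ra were present in both stroma and epithelium, while Il22ra1 and Il17re were low in the stroma. Per length of exon, as RPKM (reads per kb of exon, scaled to 1000000 reads per library), the control stromal cells held Il17rc at 15.9 ± 1.34 (SD, n = 4 libraries), Il10rb at 13.4 ± 1.88, Il17ra at 4.24 ± 0.297 and Il22 at 2.49 ± 2.11. The remaining members lay between 0.158 (Il22ra1) and 0.569 (Il17c), where 0 to 30 reads per library were counted and the order is within the spread. In control goblet cells Il17rc led at 48.9 ± 10.2, followed by Il10rb at 15.8 ± 0.325, Il22ra1 at 8.82 ± 0.833, Il17re at 3.66 ± 1.34, Il17ra at 2.82 ± 0.167 and Il17c at 0.422 ± 0.216. Il17re and Il17ra were not separated beyond their spread there. Control organoids listed the same 6 genes, with Il17rc at 27.6 ± 3.70, Il10rb at 14.6 ± 0.867, Il22ra1 at 7.66 ± 0.394, Il17ra at 2.90 ± 0.189, Il17re at 2.38 ± 0.428 and Il17c at 0.107 ± 0.130 (n = 4 distinct libraries). Il17a, Il17f, Il22 and Il22ra2 had a row in the stromal tables only. The goblet and organoid tables leave out low rows, so an absent row is not a measured 0.

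**Figure D1:**
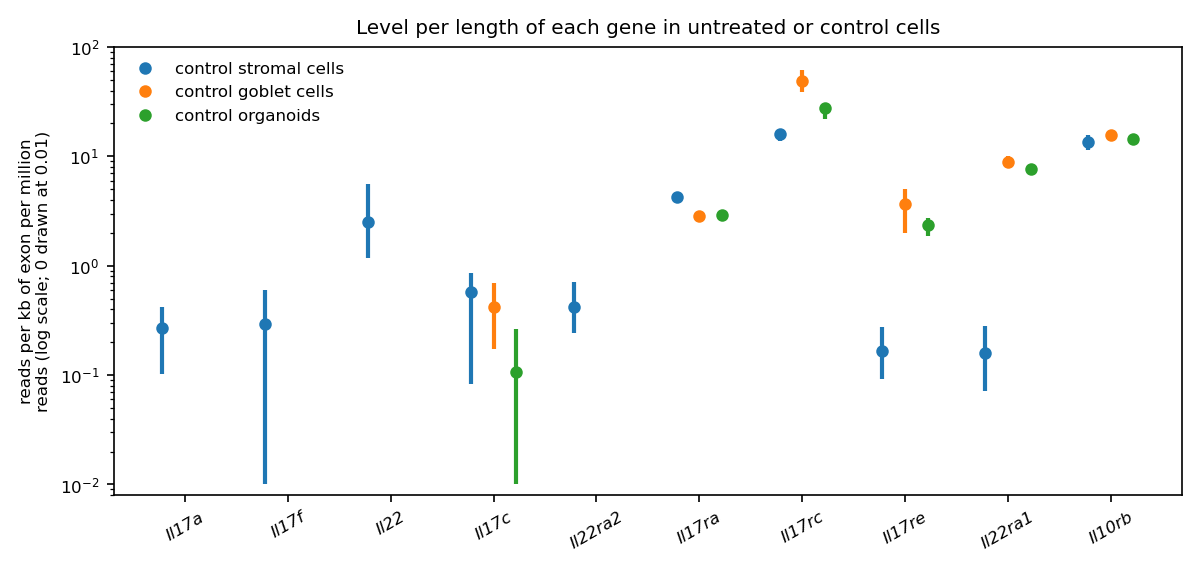
Level of each member in RPKM (log scale, a value of 0 drawn at 0.01) in control stromal cells, control goblet cells and control organoids. Each point is the mean of 4 libraries, and its line runs from the lowest to the highest library. Il22ra1 and Il17re sit far higher in the goblet cells and organoids than in the stroma, whereas Il10rb and Il17rc are high in all 3 and the ligands appear in the stroma.

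Il22ra1, Il17re and Il17rc were higher in goblet cells than in the stroma. Il22ra1 was at 354 ± 41.0 normalised counts in the 4 control goblet libraries and 7.32 ± 4.36 in the 4 control stromal libraries (log2 difference 5.56, SE 0.29, limma adjusted p = 1.77e-06). Il17re was at 335 ± 120 against 17.6 ± 9.48 (4.24, limma adjusted p = 4.23e-05), and Il17rc at 2041 ± 434 against 766 ± 62.7 (1.39, limma adjusted p = 1.30e-05). These 3 of the 5 members tested were called, that is they passed an adjusted p of 0.05 and a log2 difference of at least 1; 44.2% of all genes did in this comparison. Il17ra, the chain common to all IL-17 receptors of this list, lay 0.80 lower on the log2 scale in goblet cells (limma adjusted p = 7.38e-05), and Il10rb differed by 0.03 (limma adjusted p = 0.735). Cell kind and sort cannot be told apart in this comparison.

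The promoters of the 3 receptor genes whose levels moved in the comparisons below are shown because these are the regulatory sequences next to those changes. They are taken from RefSeq (GRCm38.p6), which gave such a window for 7 of the 10 members, and run from 250 bases before the transcript start in lower case to the first 50 transcribed bases in capitals. Il22ra1 lies at chr4:135728172-135752140 on the plus strand, with its window at chr4:135727909-135728208. Il17re (chr6:113458484-113470758) and Il17rc (chr6:113471427-113483140) are neighbours on the plus strand with 668 bases between them, and their windows lie at chr6:113458521-113458820 and chr6:113471205-113471504, the latter mostly inside that gap. The gene spans are from GENCODE and the transcript starts of the windows from RefSeq, and the starts differ. The whole Il17re window lies inside its GENCODE gene span.
Il22ra1: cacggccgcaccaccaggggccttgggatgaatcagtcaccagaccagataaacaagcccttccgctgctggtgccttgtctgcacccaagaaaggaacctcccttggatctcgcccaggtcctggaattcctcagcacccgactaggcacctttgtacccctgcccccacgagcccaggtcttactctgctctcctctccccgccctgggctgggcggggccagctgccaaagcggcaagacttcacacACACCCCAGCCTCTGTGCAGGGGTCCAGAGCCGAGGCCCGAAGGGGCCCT
Il17re: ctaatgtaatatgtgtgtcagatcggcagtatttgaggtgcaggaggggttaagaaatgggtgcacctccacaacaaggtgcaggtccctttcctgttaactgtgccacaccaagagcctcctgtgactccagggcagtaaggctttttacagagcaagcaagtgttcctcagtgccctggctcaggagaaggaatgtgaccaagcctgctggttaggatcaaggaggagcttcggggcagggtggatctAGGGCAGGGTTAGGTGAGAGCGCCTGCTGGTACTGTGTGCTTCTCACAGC
Il17rc: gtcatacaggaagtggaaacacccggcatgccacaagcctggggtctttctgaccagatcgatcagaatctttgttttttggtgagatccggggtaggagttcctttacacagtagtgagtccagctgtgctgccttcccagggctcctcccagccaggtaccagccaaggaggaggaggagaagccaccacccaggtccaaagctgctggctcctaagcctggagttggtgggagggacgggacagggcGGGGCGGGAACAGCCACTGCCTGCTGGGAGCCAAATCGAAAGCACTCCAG
The windows are 64.0%, 53.7% and 58.7% G and C, against a median of 52.7% over all promoters. Both strands of the 7 windows were searched for GGAATTTCC (a form of the NF-kB site), TTCCNGGAA (STAT) and GTCTAGAC (SMAD), letters that 0.317%, 1.15% and 0.213% of 32851 RefSeq promoters of the same length hold. None of the 7 holds any of them, which says only that these letters are not in these windows. Of the other members, Il17a (chr1:20730905-20734496, plus strand) and Il17f (chr1:20777146-20790617, minus strand) are neighbours 42649 bases apart, and Il22 lies at chr10:118204942-118210047.

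Among the ligands in the stromal sort, Il17a had higher values in 3 of the 4 knockout groups without passing the test in any of them. In the proximal colon, Il17a was at 8.27 and 3.07 normalised counts in GWTT and 22.1 and 52.8 in GS4T (log2 fold change 2.52, SE 0.77, limma adjusted p = 0.0864). In the table with GA3T, scaled separately, the same controls read 8.70 and 3.23 and the GA3T libraries 21.0 and 93.4 (2.83, SE 0.94, limma adjusted p = 0.192). In the distal colon, GA3T held 14.3 and 131 against 8.92 and 2.20 (2.99, SE 1.22, limma adjusted p = 0.279). In each of these 3 tables both knockout libraries lay above both controls, but the knockout values themselves differed by up to several-fold within a group. GS4T distal was the exception, with 0 and 17.6 against 7.82 and 1.94, too low to be tested. The groups did not overlap for 65.4%, 56.4% and 54.3% of all genes in the GS4T proximal, GA3T proximal and GA3T distal tables, so with 2 libraries against 2 a lack of overlap is common. DESeq2 on the recovered reads called Il17a in those same 3 (log2 fold changes of 2.71, 3.25 and 3.70, DESeq2 adjusted p = 0.0396, 0.0367 and 0.0311), where DESeq2 called 13.1%, 6.29% and 5.03% of genes; edgeR called it in none. Without GS4T proximal replicate 2, which held few Gli1 reads, Il17a lay at 1.91, and without GA3T proximal replicate 2 at 1.78, both uncalled (2.35% and 0.00654% of all genes were called in these fits).

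Il22, the other lymphoid cytokine, had lower values in both GS4T groups and split the GA3T distal libraries. In the proximal colon, Il22 was at 105 and 22.5 in GWTT and 14.8 and 12.0 in GS4T (log2 fold change −1.81, SE 0.81, limma adjusted p = 0.189). In the distal colon it was at 21.5 and 34.8 against 2.66 and 11.7 (−2.06, SE 0.81, limma adjusted p = 0.123). All 4 GS4T libraries lay below the controls of their segment, where 65.4% and 67.5% of all genes had groups without overlap, and neither difference passed the test. Without GWTT proximal replicate 2, the lower control, the proximal Il22 difference was −2.90 and was called, in a fit that called 14.1% of genes; without GS4T proximal replicate 2 it was −1.67, uncalled. GA3T gave 15.0 and 26.4 against 111 and 23.7 in the proximal colon (−1.33, limma adjusted p = 0.419), where the groups overlapped; without GA3T proximal replicate 2 it was −1.71, uncalled. In the distal colon, GA3T replicate 1 was the lowest library at 9.02 and GA3T replicate 2 the highest of all at 391, against 24.5 and 39.7 (0.96, limma adjusted p = 0.784). With replicate 1 left out the Il22 difference was 3.61 and was called, in a fit on 1 GA3T library that called 4.87% of all genes where the full fit called 0.0%, and with replicate 2 left out it was −1.69 and was not called. Iltifb, a near-identical copy of Il22 with which reads may be exchanged, held 4 and 59 reads in these GA3T libraries and 3 and 4 in their controls.

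Il17f, the neighbour of Il17a, had values on the other side of the controls in the proximal colon. It was at 20.7 and 9.22 in GWTT and 3.69 and 3.99 in GS4T, below the minimum mean of 10 for a test, and at 5.01 and 8.27 against 21.8 and 9.70 in GA3T (−1.06, limma adjusted p = 0.463, and −1.38 without GA3T proximal replicate 2). Both knockouts thus had lower normalised counts of Il17f and higher ones of Il17a than the 2 control libraries they share, and neither difference was called. The groups did not overlap for 65.4% (GS4T) and 56.4% (GA3T) of all genes in these proximal tables. The Il17f values rest on few reads, and their order depends on the scaling for depth. GA3T distal replicate 2 again stood out, with Il17f at 55.3 where replicate 1 had 2.25 and the controls 0 and 11. Il17c, the epithelial ligand, stayed below the filter in each stromal table that listed it, at 0.978 to 18.8 normalised counts.

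The library that held most Il17a, Il17f and Il22, GA3T distal replicate 2, also held most reads of the lymphoid markers Il7r and Ccr6. Its sum over the whole lymphoid list was not the highest. Il7r, the IL-7 receptor of lymphoid cells, had 467 reads there and 101 to 370 in the other 11 stromal libraries, and Ccr6, a chemokine receptor of type 17 cells, had 62 against 0 to 20. Over the 15 markers of T cells and ILC3, the summed level was 306 RPM (reads scaled to 1000000 per library) in that library and 178 in GA3T distal replicate 1, and 177 to 321 over the 10 others. In GS4T the summed level was 177 and 178 in the proximal colon, against 198 and 231 in the controls, and Il23r, the receptor chain for IL-23, had 5 and 16 reads against 30 and 24. In the distal colon the summed level was 184 and 321 in GS4T, against 202 and 211 in the controls. The highest sum of all stromal libraries was thus in GS4T distal. Il17a was at 0 and 0.901 RPKM in that group, against 0.102 and 0.407 in GWTT distal. Il22 was at 0.146 and 0.633 RPKM against 1.18 and 1.93. Of this list, 0 of 14 tested genes were called higher and 2 lower (Cd8a and Trbc1) in GS4T proximal (0 without replicate 2), and 1 of 11 higher (Trdc) and 0 lower in GS4T distal. No gene of it was called in either GA3T comparison, among 15 and 13 tested. Over all genes 5.25% were called higher and 4.36% lower in GS4T proximal, and 7.88% and 6.08% in GS4T distal. In GA3T 0.358% (proximal) and 0.0% (distal) of all genes were called. The part of these lymphoid reads in the ligand differences was not tested, and in a bulk library fewer cells of a type and less RNA per cell cannot be told apart.

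**Figure D2:**
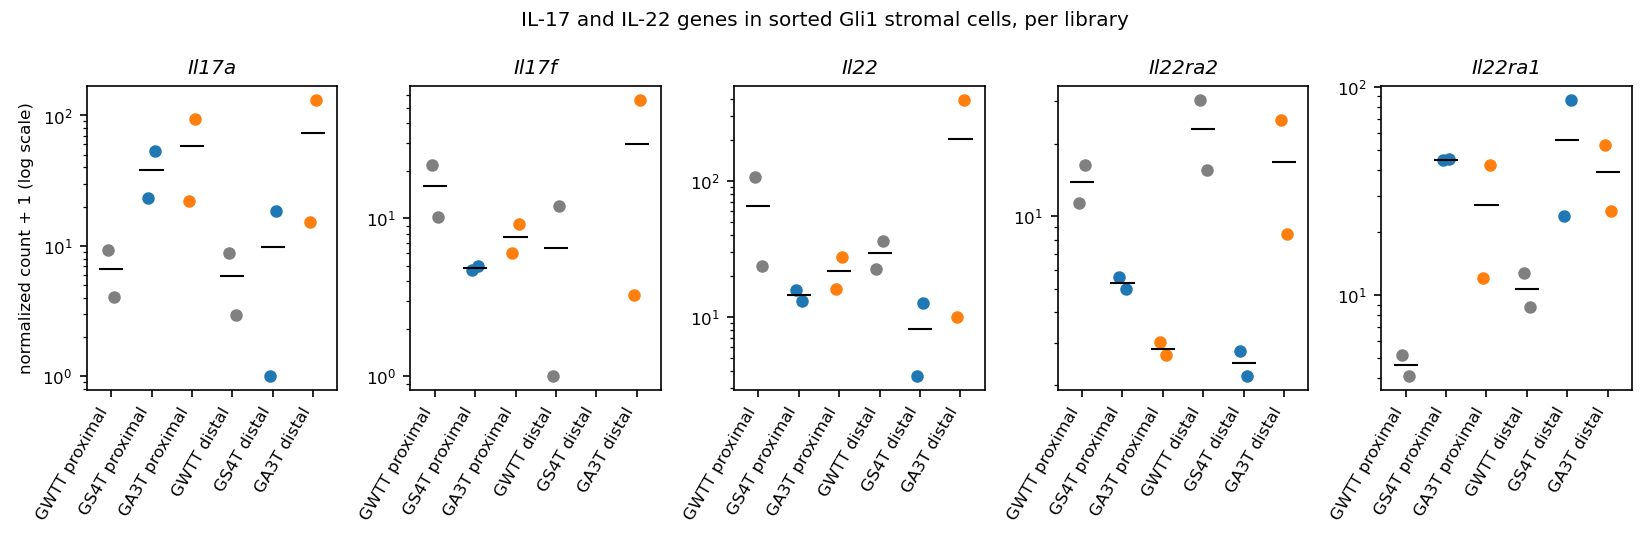
Normalised count plus 1 (log scale) of Il17a, Il17f, Il22, Il22ra2 and Il22ra1 in sorted Gli1 stromal cells, with 1 point per library, bars at the mean of the normalised counts and groups on the horizontal axis (GWTT as scaled in the GS4T table, or in the GA3T table for Il17f in the distal colon). Il17a points of GS4T proximal and of both GA3T groups lie above their controls, the Il22 points of GA3T distal lie far apart at 9.02 and 391, and Il22ra1 points of the knockouts lie above the controls in each segment.

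Il22ra2, the secreted inhibitor of IL-22, fell in the distal GS4T stroma. It was at 29.3 and 14.5 normalised counts in GWTT and 1.77 and 1.17 in GS4T (log2 fold change −3.14, SE 0.80, limma adjusted p = 0.0405). These are 30 and 15 reads against 2 and 1, and the controls held 14.6 times more at equal depth (95% exact interval 4.70 to 73.6, counting error only). Only 3 reads carry the knockout level, and the call was lost on leaving out GWTT distal replicate 2 (−3.63), GS4T distal replicate 1 (−3.32) or replicate 2 (−2.97), in fits that called 8.12%, 10.9% and 12.6% of genes. In the proximal colon Il22ra2 was below the filter, with 10.3 and 15.4 in GWTT against 4.61 and 3.99 in GS4T, and 10.9 and 16.2 against 2.0 and 1.65 in GA3T. The GA3T distal libraries held 24.0 and 7.44 against 33.5 and 16.5 (−0.76) and overlapped the controls. Il22ra2 was thus lower in both knockout libraries in 3 of 4 tables, of which the proximal tables share controls; the groups did not overlap for 65.4%, 67.5% and 56.4% of all genes in these tables (GS4T proximal, GS4T distal and GA3T proximal). Beside it, Cd209a, a dendritic cell gene, had 15 to 23 reads in each GWTT library and 0 in all 4 GS4T libraries, and the 11 dendritic cell and eosinophil markers summed to 27.3 to 37.1 RPM in GWTT and 35.4 to 47.4 in GS4T. In GS4T distal, 0 of 7 tested markers of that list were called higher and 3 lower (Cd209a, Flt3 and Prg2), against 7.88% and 6.08% of all genes. The part of these cells in the Il22ra2 difference was not tested.

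Il22ra1, the chain that makes a cell responsive to IL-22, was the member called higher in the knockout stroma. In the proximal colon it was at 4.14 and 3.07 normalised counts in GWTT and 43.3 and 43.9 in GS4T (log2 fold change 3.29, SE 0.57, limma adjusted p = 0.0245). The summed reads were 7 in the controls and 91 in GS4T, a ratio at equal depth of 12.2 (95% exact interval 5.66 to 31.1, counting error only). The difference was 3.28 without GS4T proximal replicate 2 and 3.29 without replicate 1, neither of which was called (2.35% and 0.775% of all genes were, against 9.61% in the full fit). In the distal colon the values were 11.7 and 7.74 against 23.0 and 85.7 in GS4T (2.11, SE 0.75, limma adjusted p = 0.0949), a difference that was called when GS4T distal replicate 1 was left out (3.04, 10.9% of genes called). GA3T gave 11 and 41.3 against 4.35 and 3.23 in the proximal colon (2.24, limma adjusted p = 0.235) and 51.9 and 24.5 against 13.4 and 8.81 in the distal colon (1.63, limma adjusted p = 0.262). All 8 knockout libraries lay above the controls of their segment; the groups did not overlap for 65.4% and 67.5% of all genes in the GS4T tables and for 56.4% and 54.3% in the GA3T tables (proximal and distal). Without GA3T proximal replicate 2 the gene was below the filter in that table. Il22ra1 and Il22ra2 were thus the called members in the GS4T stroma, 1 of 7 tested in each segment, where 9.61% and 14.0% of all genes were called. In GA3T none of 8 proximal and 9 distal members tested was called by limma, against 0.358% and 0.0% of genes. With p left unadjusted 1 member passed both limits in each, where 9.46% and 7.77% of all genes did. EdgeR called 0 members and DESeq2 1 (Il17a) in each, where DESeq2 called 6.29% and 5.03% of all genes.

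Summed epithelial markers were higher in 7 of the 8 knockout libraries than in both controls of their segment. The 9 markers, which include Epcam and keratins, summed to 16.1 and 585 RPM in GWTT proximal, 63.8 and 204 in GWTT distal, 1443 and 1811 in GS4T proximal, 791 and 1585 in GS4T distal, and 494 to 1174 in the 4 GA3T libraries, against 9805 to 15956 in goblet cells. GA3T proximal replicate 1, at 580, was the exception. Of these markers 1 of 9 was called higher in GS4T proximal (Krt18; 0 without replicate 2), 9 of 9 in GS4T distal and 0 of 9 in both GA3T comparisons, with 0 called lower. Over all genes 5.25% were called higher in GS4T proximal, 7.88% in GS4T distal, 0.345% in GA3T proximal and 0.0% in GA3T distal. Per 1000 reads of these markers, Il22ra1 had 1.42 to 3.24 reads in the 4 GS4T libraries and 1.06 to 2.57 in the 4 GA3T libraries. The 4 GWTM2 goblet libraries had 1.78 to 2.0. The knockout stroma therefore held Il22ra1 and epithelial markers in a ratio that overlapped that of goblet cells. The controls, with 3 to 12 Il22ra1 reads each, ranged from 0.317 to 15.2. The part of these epithelial reads in the Il22ra1 difference was not tested.

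**Figure D3:**
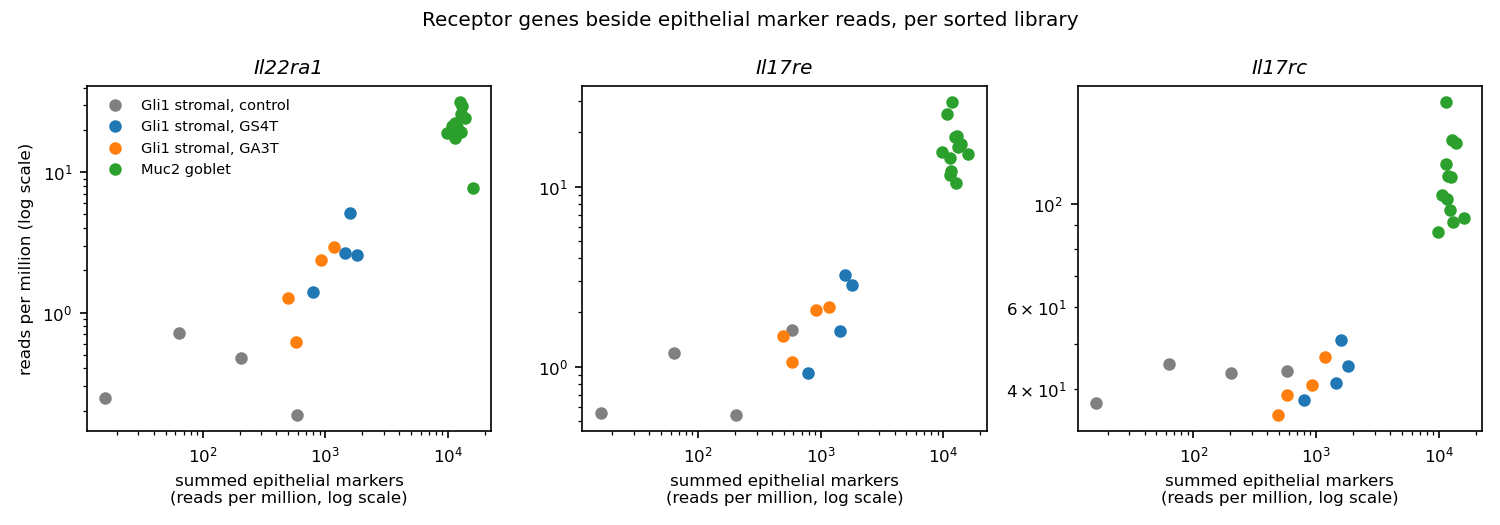
RPM of Il22ra1, Il17re and Il17rc (vertical, log scale) against the summed RPM of 9 epithelial markers (horizontal, log scale), 1 point per sorted library. The GS4T and GA3T stromal libraries lie at 494 to 1811 marker RPM, above 3 of the 4 GWTT libraries and below the goblet cells at 9805 to 15956, and their Il22ra1 points lie above those of GWTT in the same segment.

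No other receptor chain was called in the stroma. Il17re, the IL-17C receptor chain, was at 25.8 and 48.8 in GS4T proximal against 9.31 and 26.6 (1.12, limma adjusted p = 0.315; 0.67 without GS4T proximal replicate 2), and at 15.1 and 54.0 in GS4T distal against 19.6 and 8.71 (1.07). GA3T gave 19.0 and 36.4 against 9.79 and 28.0 in the proximal colon and 38.3 and 28.7 against 22.3 and 9.91 in the distal colon (1.10). Only in the last of these 4 tables did the groups not overlap, as for 54.3% of all genes there. Per 1000 epithelial marker reads, Il17re had 1.10 to 2.04 in GS4T and 1.83 to 3.01 in GA3T, beside 0.83 to 2.50 in the goblet libraries of all 3 genotypes. Il10rb, the shared chain, was at 1089 and 1068 in GS4T proximal against 741 and 776 (0.51, SE 0.10, limma adjusted p = 0.0341), which passed the p threshold but not the fold (0.52 without GS4T proximal replicate 2), and at 1073 and 1212 against 880 and 971 in the distal colon (0.30). Il17rc stayed near its control level, at 671 and 765 against 629 and 724 in GS4T proximal and 619 and 853 against 743 and 704 in GS4T distal (0.09 and 0.01). Per 1000 epithelial marker reads it had 24.7 to 71.0 in the knockout stroma and 5.84 to 14.6 in goblet cells. Il17ra was at 690 and 610.0 against 567 and 610 in GS4T proximal (0.14) and 805 and 729 against 605 and 647 in GS4T distal (0.29). In the GA3T tables Il17ra, Il17rc and Il10rb had log2 fold changes of −0.20 to 0.20, none called.

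The response of the members to either deletion was also compared between the segments. Limma's test of that difference (proximal minus distal change) called 0 members in GS4T or GA3T stroma and 0 in GS4M2 or GA3M2 goblet cells, and so did edgeR, DESeq2 and limma at an unadjusted p under 0.05. Over all genes limma called 0.189% for GS4T and 0.0% for the other 3. The alternatives called 0.0% to 0.00653% (edgeR), 0.0227% to 2.22% (DESeq2) and 1.01% to 5.21% (limma, unadjusted p) of all genes.

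In goblet cells, whose own Smad4 and Alk3 genes were not the target of the deletion, the receptor most changed in value was Il17re in the proximal colon. It was at 433 and 508 normalised counts in GWTM2 and 255 and 320 in GS4M2 (log2 fold change −0.71, SE 0.17, limma adjusted p = 0.143). In GA3M2 it was at 223 and 291 against 461 and 537 of the same control libraries (−0.96, SE 0.23, limma adjusted p = 0.201). All 4 knockout libraries lay below both controls; the groups did not overlap for 50.2% of all genes in the first table and 52.1% in the second. DESeq2 gave the same differences with DESeq2 adjusted p = 0.0477 and 0.0406, both under the fold of 1. In the distal colon Il17re overlapped, at 244 and 302 against 207 and 345 in GS4M2 (0.02) and 181 and 271 against 198 and 333 in GA3M2 (−0.21). The segments did not differ by the test of the difference (−0.73 and −0.75, limma adjusted p = 0.623 and 1.00). The GS4M2 proximal value would be positive with the exchanged headings described above. In GA3M2, Muc2 held 733 to 1027 RPM against 2429 to 12374 in GWTM2, a difference in the sorted gene that stands beside these values.

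The other goblet receptors did not pass the test. Il17rc was at 1959 and 1492 in GA3M2 distal against 2810 and 2395 (−0.60, SE 0.19, limma adjusted p = 0.363), at 2047 and 2357 against 2937 and 2481 in GS4M2 distal (−0.30) and at 1432 and 1640 against 1778 and 1970 in GS4M2 proximal (−0.29). Il22ra1 was at 363 and 149 in GA3M2 proximal against 387 and 383 (−0.73, limma adjusted p = 0.427); without GA3M2 proximal replicate 1, the library at 363, its difference was −1.37 and was called, in a fit on 1 GA3M2 library that called 7.75% of all genes where the full fit called 0.0899%. Il22ra1 lay at 314 and 537 against 363 and 363 in GS4M2 proximal (0.18), and in the distal colon at 297 and 427 against 396 and 466 in GS4M2 (−0.27) and 331 and 483 against 379 and 450.2 in GA3M2. Il10rb was between 859 and 1476 and Il17ra between 320.1 and 460 in all of these libraries. Il17c, the 1 ligand listed in goblet cells, had 8.05 and 25.8 in GA3M2 proximal against 5.48 and 9.13 (0.94, limma adjusted p = 0.559) and 13.7 and 6.71 in GA3M2 distal against 4.80 and 2.19, below the filter. In all, limma called 0 of 5 members in each GS4M2 table and 0 of 6 and 0 of 5 in the GA3M2 tables. It called 0.325%, 0.0%, 0.0899% and 0.0% of all genes there, and 0 members were called by edgeR, by DESeq2 or by limma with p left unadjusted. Over all genes edgeR called 0.0% to 0.385% in these tables, DESeq2 1.13% to 3.23% and limma with p left unadjusted 2.70% to 6.83%.

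Organoids allowed the epithelial receptors to be measured after a cytokine was added directly. At 72 h of IL-1, Il17re and Il17rc rose together. Il17re was at 167, 191 and 237 normalised counts in the controls and 467, 563 and 745 with IL-1 (log2 fold change 1.56, SE 0.24, limma adjusted p = 0.00392). Il17rc was at 893, 1154 and 1151 in the controls and 1954, 2126 and 2560 with IL-1 (1.05, SE 0.17, limma adjusted p = 0.00438). Both genes were higher in 3 of 3 treated libraries than in any control, and the groups did not overlap for 54.7% of all genes. The Il17re call held on leaving out any 1 library (1.38 to 1.72). The Il17rc call, whose fold is just past the limit, was lost without Control 72 h replicate 1 (0.93) or IL-1 72 h replicate 3 (0.94), in fits that called 22.5% and 16.0% of genes. These were 2 of 5 members tested, where 23.0% of all genes were called. Summed epithelial markers were at 13777 to 16878 RPM in these IL-1 libraries, against 9695 to 11011 in the controls, and colonocyte markers at 7643 to 14526 against 3816 to 6140. Of these lists 1 of 9 and 4 of 7 were called higher, where 10.9% of all genes were. Per 1000 epithelial marker reads, Il17rc had 6.79 to 9.63 with IL-1 at 72 h and 5.37 to 8.0 in the 4 distinct controls, which overlap, and Il17re 1.62 to 2.80 against 1.00 to 1.64, which overlap at their ends. The part of the marker difference in the rise of these receptors was not tested. Of the genes on either side of this pair, Jagn1, which ends 10254 bases before Il17re, lay at −0.51 (limma adjusted p = 0.0399) and Creld1, 156 bases past Il17rc, at 0.43 (limma adjusted p = 0.285), neither called.

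With IL-17A at 72 h the same 2 genes had higher values in each treated library but a wider spread. The groups did not overlap for 45.3% of all genes there. Il17re was at 166, 190 and 236 in the controls and 510, 311 and 768 with IL-17A (1.34, SE 0.35, limma adjusted p = 0.0522). Il17rc was at 891, 1147 and 1148 against 1879, 1242 and 2384 (0.75, limma adjusted p = 0.0864). IL-17A 72 h replicate 2 was the lowest treated library for both, and without it the differences were 1.67 and 1.00 and both were called, in a fit that called 27.5% of all genes against 7.94% in the full fit. Summed epithelial markers were at 13034 to 14299 RPM with IL-17A at 72 h, and per 1000 of their reads Il17re had 1.52 to 2.63 and Il17rc 6.08 to 8.16, both overlapping the controls.

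Il22ra1 was the receptor with higher values at both times and with both cytokines. At 12 h it was at 341, 312 and 299 in the controls and 720, 561 and 491 with IL-1 (0.88, SE 0.17, limma adjusted p = 0.428). With IL-17A at 12 h it was at 701, 779 and 679 against 358, 327 and 313 of the same controls (1.11, SE 0.12, limma adjusted p = 0.0523). At 72 h it was at 443, 656 and 609 with IL-1 against 296, 282 and 287 (0.96, SE 0.20, limma adjusted p = 0.00904), under the fold limit, which it passed without IL-1 72 h replicate 1 (1.13, 22.7% of genes called). With IL-17A at 72 h it was at 474, 540 and 816 against 296, 280 and 286 (1.04, SE 0.24, limma adjusted p = 0.0450), the 1 of 5 members called there, where 7.94% of all genes were. In each of the 4 comparisons all 3 treated libraries exceeded all 3 controls, and over all genes the groups did not overlap for 9.53% (IL-1) and 10.9% (IL-17A) at 12 h and 54.7% and 45.3% at 72 h. In the IL-1 12 h, IL-17A 12 h and Control 72 h groups, 2 of the 3 libraries were much closer to each other than to the remaining library. At 12 h limma called 0 of 5 members with either cytokine, against 0.0542% (IL-1) and 0.0385% (IL-17A) of genes. DESeq2 gave DESeq2 adjusted p = 0.00297 and 6.9e-12. With replicate as a block, the 12 h differences were 0.90 with IL-1 (limma adjusted p = 7.5e-06, under the fold limit) and 1.04 with IL-17A (limma adjusted p = 6.2e-20, called). These block fits called 0.774% and 0.925% of all genes. Only 2 replicate numbers are shared there, so the block fits leave little spread within a gene and borrow it from other genes. With the 2 close treated libraries averaged, the 12 h differences were 0.96 with IL-1 (limma adjusted p = 0.9999) and 1.10 with IL-17A (limma adjusted p = 0.474). Neither was called, in fits that called 0.0% and 0.0154% of all genes. The IL-17A call at 72 h was lost on leaving out any of the 6 libraries but IL-17A 72 h replicate 2, with differences of 0.81 to 1.21 in fits that called 0.0229% to 1.67% of all genes, and in the fit with replicate as a block (0.81). Per 1000 epithelial marker reads, Il22ra1 had 2.81 to 3.73 with IL-1 and 3.36 to 4.37 with IL-17A at 12 h, above the 1.78 to 1.99 of the controls. At 72 h it had 1.54 to 2.31 and 1.77 to 2.80, which overlap the controls.

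The remaining members in organoids were uncalled at both times. Il17ra was at 295, 280.4 and 270 with IL-17A at 72 h, below all of the controls at 359, 404 and 386 (−0.44, limma adjusted p = 0.112), and at 285, 360 and 398 with IL-1 at 72 h, overlapping its controls (−0.16). Il10rb was at 874, 1244 and 1533 with IL-1 at 72 h against 808, 842 and 890 (0.49, limma adjusted p = 0.103) and at 774, 785 and 1342 with IL-17A (0.15). At 12 h Il17ra, Il17rc, Il17re and Il10rb had log2 fold changes of −0.17 to 0.16 with either cytokine. Il17c had 8, 3 and 13 reads with IL-1 at 12 h and 0, 2 and 0 in the controls, a ratio at equal depth of 12.6 (95% exact interval 3.12 to 109.6, counting error only), which stayed below the filter and untested. It had no row in the IL-17A table at 12 h.

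**Figure D4:**
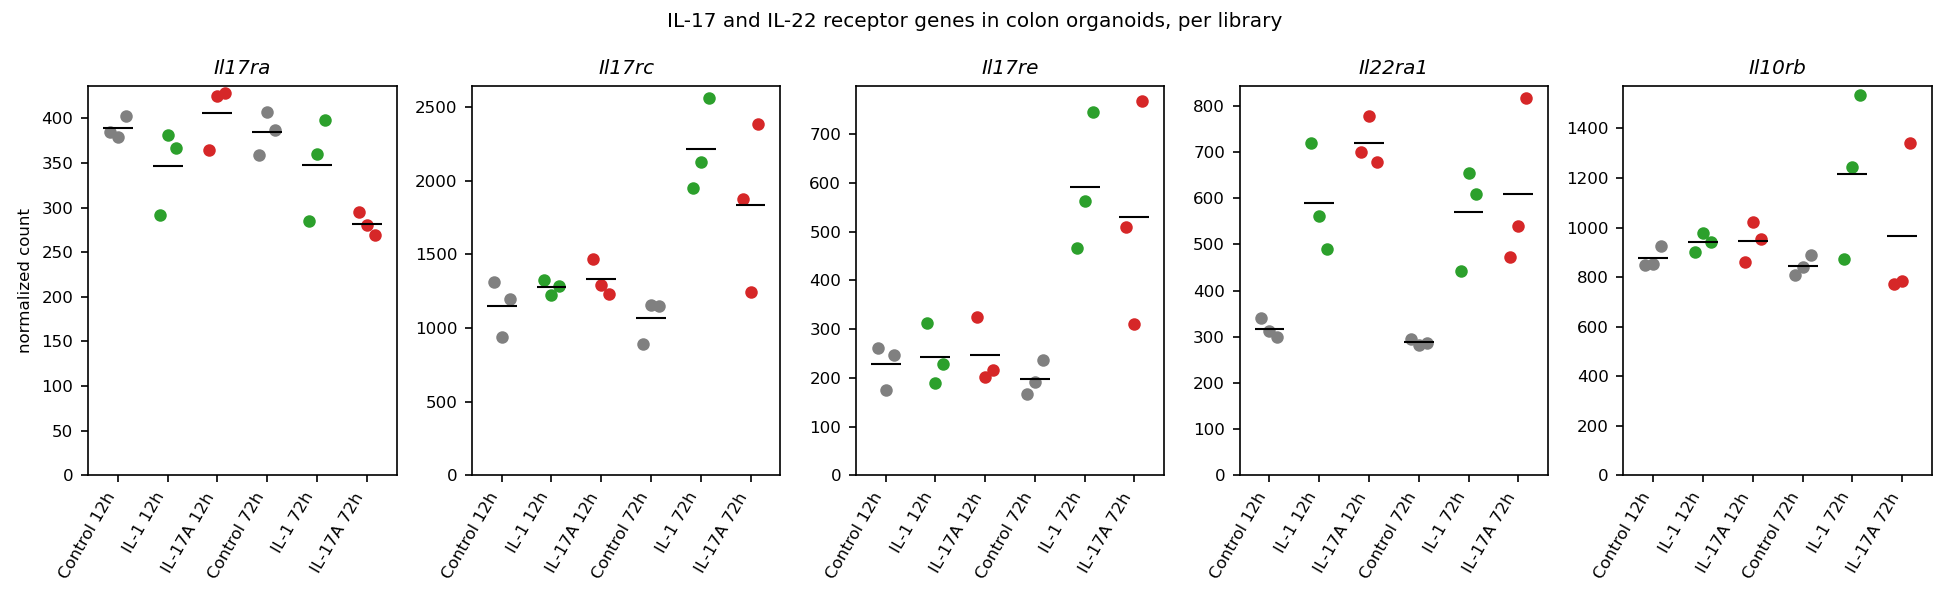
Normalised count of the 5 receptor genes tested in each organoid library, 1 point per library and bars at the mean, by group and time (Control as scaled in the IL-1 tables). Il17re and Il17rc rise above the controls at 72 h with IL-1, and Il22ra1 lies above the controls at 12 h and at 72 h with both cytokines.

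The responses to IL-1 were compared between the times. For Il17re, the change at 72 h exceeded that at 12 h (0.09) by 1.47 on the log2 scale (SE 0.35, limma adjusted p = 0.0142), the 1 of 5 members called where 17.4% of all genes were. With each distinct control library entered once, the controls of both times were pooled. That fit compares the treated levels of the 2 times and does not correct for time in culture. The Il17re level with IL-1 at 72 h minus that at 12 h was 1.36 there (limma adjusted p = 0.00222), in a fit that called 20.9% of genes. For the difference between the responses, Il17rc gave 0.89 (limma adjusted p = 0.0171) and Il22ra1 0.08 (limma adjusted p = 0.838). Il17rc was under the fold limit, which it passed without Control 12 h replicate 2 (1.03, 13.9% of genes called). With IL-17A the time difference of Il17re was 1.30 (limma adjusted p = 0.112), and 1.63, called, without IL-17A 72 h replicate 2, while that of Il22ra1 was −0.07. The Il17re level with IL-17A at 72 h minus that at 12 h was 1.19 with each distinct control once (limma adjusted p = 0.0298). Limma called 0.0384% of all genes in the full fit, 12.7% with each distinct control once and 21.6% without that library.

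Treated organoids were also compared with each other, and limma called 0 members between IL-1 and IL-17A at either time, as did edgeR, DESeq2 and limma at an unadjusted p under 0.05. For Il22ra1 the IL-1 level minus the IL-17A level was −0.23 (SE 0.16) at 12 h and −0.08 (SE 0.27) at 72 h on the log2 scale, and at 72 h it was 0.23 (SE 0.36) for Il17re and 0.32 for Il17rc. Over all genes limma and edgeR called 0 at both times (0.0%), DESeq2 called 8 and 1, and 41 and 19 passed at an unadjusted p under 0.05 with the fold.

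**Figure D5:**
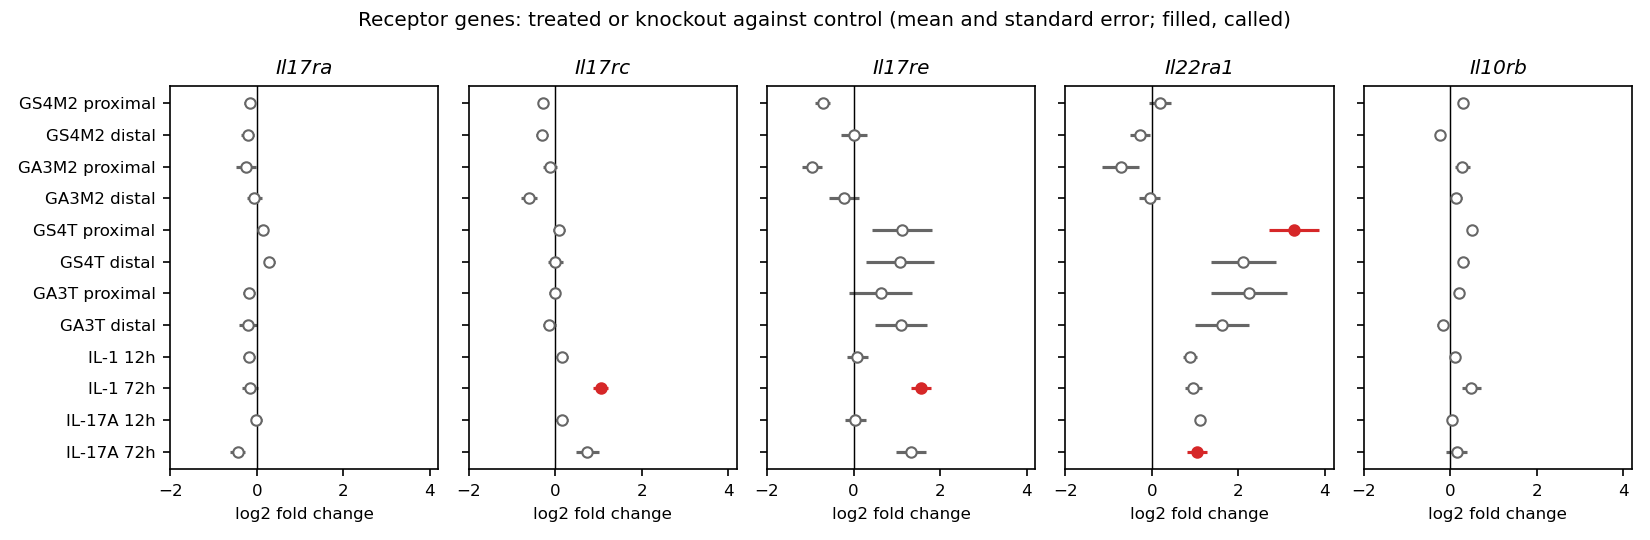
Log2 fold change with its standard error (horizontal) of the 5 receptor genes in each of the 12 comparisons, filled where called. Il22ra1 is filled in GS4T proximal and IL-17A 72 h, and Il17re and Il17rc in IL-1 72 h.

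The signalling genes downstream of the IL-17 receptors were called in small numbers, feedback genes among them. Of 19 such genes, 4 were called higher and 0 lower in organoids with IL-1 at 72 h: Zc3h12a (2.40), which encodes the RNase Regnase-1, Nfkbiz (2.16), a nuclear NF-kB cofactor, Cebpd (1.82) and Tnfaip3 (1.53), an NF-kB inhibitor. With IL-17A the counts were 2 higher at 12 h (Zc3h12a 2.62, Nfkbiz 2.34) and 4 at 72 h (3.18 and 3.05 for the same genes), with 0 lower. IL-1 at 12 h called 1 higher (Nfkbiz, 1.42). In the stroma 0 were called higher and 1 lower (Arid5a, −1.05) in GS4T proximal, and 2 higher (Tnfaip3 1.25, Zc3h12a 1.13) in GS4T distal. Over all genes 10.9% were called higher with IL-1 and 5.02% with IL-17A at 72 h, and 0.0542% and 0.0385% at 12 h; in GS4T 4.36% were called lower in the proximal colon and 7.88% higher in the distal colon. Without GS4T proximal replicate 2, 0 of the 19 were called there. The list medians were 0.02 and 0.17 in the organoids at 72 h with IL-1 and IL-17A, beside medians near 0 over all genes.

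Epithelial target genes of IL-17, which include antimicrobial proteins, neutrophil chemokines and the Duox2 oxidase, were called higher in the tables where the receptors changed and in others. In organoids at 72 h, 10 of 13 tested were called higher with IL-1 (Lcn2 6.45, Duoxa2 4.81, Saa1 4.48) and 8 of 13 with IL-17A (Duoxa2 5.91, Lcn2 5.71, Duox2 5.06, Nos2 4.62), and 0 lower. At 12 h these counts were 3 of 12 with IL-1 (Ccl20 4.95, Cxcl2 4.69, Duox2 3.01) and 1 of 10 with IL-17A (Duox2, 3.40). In the stromal sort, 10 of 17 were called higher in GS4T proximal and 14 of 16 in GS4T distal (Lcn2 5.88 and 7.27), 1 of 17 in GA3T proximal (Lcn2 5.62), and in goblet cells 1 of 8 in GS4M2 proximal (Saa1 3.19). The shares of all genes called higher were 10.9% and 5.02% at 72 h (IL-1 and IL-17A), 0.0542% and 0.0385% at 12 h, 5.25% and 7.88% in GS4T (proximal and distal), 0.345% in GA3T proximal and 0.174% in GS4M2 proximal. Without GS4T proximal replicate 2 the proximal count was 3 of 17, and without GA3T proximal replicate 2 it was 0 of 14 there. In these GS4T libraries 6 of 7 and 9 of 9 tested neutrophil markers were also called higher, and neutrophils express several of the same genes, S100a8 and S100a9 among them; their part in these counts was not tested.

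For IL-22, of 9 genes of receptor signalling 0 were called higher in the GS4T stroma and Socs1 (−1.94) and Socs3 (−1.66), inhibitors of JAK and STAT signalling, lower in the proximal colon; Socs1 was also lower in the distal colon (−1.30). Over all genes 4.36% were called lower in GS4T proximal and 6.08% in GS4T distal. In organoids 1 of the 9 was called higher, Socs3 with IL-1 at 72 h (1.47). Among IL-22 target genes, which overlap the IL-17 targets in the Saa and S100a genes, 7 of 14 were called higher in GS4T proximal (Retnlb 6.85) and 13 of 14 in GS4T distal (Reg3g 5.84, Reg3b 5.41), and 2 of 12 in GS4M2 proximal (Steap4 3.86, Saa1 3.19), against 5.25%, 7.88% and 0.174% of all genes called higher. Without GS4T proximal replicate 2 the proximal count was 1 of 14, and Socs3 was no longer called. Several of these targets are expressed by epithelial cells or neutrophils, whose markers were called higher in GS4T distal in 9 of 9 cases each, and the part of those cells was not tested. With IL-1 at 72 h, 5 of 9 were called higher (Lbp, 4.40, among them) and 1 lower, Retnlb (−4.88). With IL-17A at 72 h 3 of 9 were called higher (Steap4 3.76, Lrg1 3.58, Lbp 3.36). Over all genes 10.9% were called higher and 12.2% lower with IL-1, and 5.02% higher with IL-17A.

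The genes known to induce IL-17 and IL-22 in lymphoid cells were called in the GS4T stroma beside the ligand values given above. In GS4T proximal 3 of 10 tested were higher (Il1a 5.39, Il1b 3.57, Tgfb1 1.38) and 1 lower, the transcription factor Irf4 (−1.88). In GS4T distal 4 of 9 were higher (Il23a 5.63, Il1a 4.76, Il1b 2.86 and Batf) and Irf4 lower (−3.36). Over all genes 4.36% were called lower in GS4T proximal and 6.08% in GS4T distal. Summed plasma cell markers were also lower in these groups. They were at 3226 to 4967 RPM in GS4T proximal against 7479 to 12261 in GWTT proximal. In the distal colon they were at 1429 to 5106 against 15329 to 20549. The part of plasma cells in the Irf4 values was not tested. GA3T proximal called 1 higher (Il1b, 2.60). Over all genes 5.25%, 7.88% and 0.345% were called higher in these 3 tables, and without replicate 2 of the proximal knockouts Il1a and Il1b were still called in GS4T and no inducer in GA3T. Myeloid cells express Il1a and Il1b, and in the same libraries summed neutrophil markers were at 80.7 to 96.6 RPM in GS4T proximal against 2.63 to 6.98 in GWTT, and macrophage markers at 1015 to 1797 against 325 or less; their part was not tested. In organoids at 72 h Tgfb1 was called higher with IL-1 (1.42) and with IL-17A (1.67). Of other genes of the IL-10 family, the receptor chain Il20ra, which also pairs with IL-10RB, was called higher in GS4T proximal (6.30, from a control level of 0 to 78.1 normalised counts, a fit that depends on the pseudocount, and not called without GS4T proximal replicate 2) and in GS4T distal (5.33), as was Il10ra in GS4T distal (1.11). No other IL-17 family gene was called in a knockout or cytokine comparison.

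Across the organoid libraries the members fell into groups by their pattern. Over 16 distinct libraries and 12936 genes, the Pearson correlation of log2 values, given as a description, was 0.97 between Il17re and Il17rc, 0.46 and 0.48 between Il22ra1 and these genes, and −0.45 and −0.32 between Il17ra and these genes. The genes most like Il17re were Insig1 (0.98), Ssh3 and Mapk13, those most like Il17rc were Ly6g2 (0.99), S100a14 and Ybx2, and Lbp (0.88) and Tmem238l were among those most like Il22ra1. Il10rb was closest to Gde1 (0.96), Clca1 and Atg13, and S100a4 (0.81) and Ddc were among those closest to Il17ra. These libraries share treatments and times, so genes that respond to both cytokines at 72 h lie near each other.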

How the data were processed

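Per the labels and the study's methods, the authors sequenced mRNA with a SMARTER kit, mapped reads uniquely to mm10 with STAR 2.5.3 and normalised counts with DESeq2 1.28.1. The 12 deposited tables hold these normalised counts, a depth-scaled signal per gene and library, scaled separately for each table; they leave out low rows, and rows without a gene name (up to 28.2% of values in the GS4M2 tables) were dropped. Here, log2(value + 1) was compared within each table with limma 3.58.1 (R 4.3.3) with a mean trend, for genes with a mean of at least 10, with Benjamini-Hochberg adjustment over all genes tested; fold changes of low genes are understated on this scale. A gene was called at an adjusted p under 0.05 and a log2 fold change of at least 1. The values checked, which left out those with the highest read numbers, were all within 0.1 of whole reads after rescaling (100%). EdgeR 4.0.16 and DESeq2 1.42.0 were run on the recovered reads as alternatives. Across the 12 tables limma called 0 to 2998 genes, edgeR 0 to 2971 and DESeq2 43 to 3189. The scripts were tested on simulated data.

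The 10 members and all gene lists were chosen with earlier results of these data known. All 10 members are named in each comparison that lists them, list genes by size of change among those called, and, for each member, the 3 genes most like it over the 16 distinct organoid libraries (libraries with the same reads counted once); some genes these rules select are not reported here. Replicate numbers of IL-1 and IL-17A organoids paired the samples (correlations of deviations from the group means of 0.59 to 0.86 at 12 h and 0.44 to 0.75 at 72 h), though the source of that pairing is not given in the sources used here, and the block changed no member's call between them. Coordinates are from GENCODE M21 on GRCm38. Intervals cover counting error only.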

Additional observations from a re-analysis of the deposited data

Results flagged for a closer look

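The response of Il17re to IL-1 differed between the times. Its log2 fold change was 0.09 at 12 h and 1.56 at 72 h, a difference of 1.47 (SE 0.35, limma adjusted p = 0.0142). The controls of the 12 h and 72 h comparisons share 2 libraries. With each distinct control entered once and the controls pooled, the treated level at 72 h minus that at 12 h was 1.36 (limma adjusted p = 0.00222). That fit does not correct for time in culture.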

How the results depend on the processing

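With the pseudocount at 0.1 or 10 in place of 1, no filter on low values, upper-quartile rescaling, no adjustment of p, edgeR, DESeq2, the replicate block or 1 library left out, 1689 of 1733 recomputed member values kept their direction and side of the threshold, 17 lost a call, 27 gained one and 0 reversed a call; 96 uncalled values changed sign. The number of members called was 1 in GS4T proximal, and 2 at the unadjusted p and with DESeq2 (0 to 2 without 1 library). It was 1 in GS4T distal, 0 with pseudocount 0.1, 3 unadjusted and 2 with DESeq2 (0 to 1 without 1 library). It was 0 in GA3T proximal and in GA3T distal, and 1 in each both unadjusted and with DESeq2 (GA3T distal 0 to 1 without 1 library), and 0 in GA3M2 proximal (0 to 1 without 1 library). It was 2 for IL-1 at 72 h and 1 with upper-quartile rescaling (1 to 3 without 1 library). For IL-17A at 12 h it was 0, and 1 with pseudocount 10, unadjusted or with DESeq2 (Il22ra1). For IL-17A at 72 h it was 1, and 0 with upper-quartile rescaling or with the close control pair averaged, and 2 unadjusted or with DESeq2 (0 to 3 without 1 library). For the time difference it was 1 with IL-1 (1 to 2 without 1 library), and 0 with IL-17A, which became 1 unadjusted, with DESeq2 or with each distinct control once (Il17re; 0 to 1 without 1 library). The cause of these moves was not tested. Averaging of close pairs and entering each distinct control once were chosen after seeing the data, and the latter compares treated levels between the times. Over all genes, limma called 0 to 55 and DESeq2 148 to 966 in the 4 goblet and 2 GA3T comparisons.

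The replicate block gave 1 member for IL-17A at 12 h and 0 for IL-17A at 72 h, in both cases by the call of Il22ra1, and changed no other number of members called. The 12 tables share only 2 replicate numbers per comparison, and the numbers were not taken as pairs in the main fits there. Their correlations of deviations were 0.62 to 0.64 in the organoid comparisons at 12 h and −0.19 to 0.30 in the others. The 12 h values lie in the range of those between IL-1 and IL-17A at 12 h, so the main fits at 12 h may leave a pairing out.

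The planned averaging of libraries that agree within counting noise had no pair within a group to act on, and the closest pairs were averaged instead, as given above; Control 72 h replicates 2 and 4 and replicates 3 and 4 of IL-1 and of IL-17A at 12 h were these pairs. Their squared difference over counting noise, averaged over genes, was 3.12 to 3.46, against 67.9 to 76.3 for the other pairs of these groups. These groups may therefore hold fewer than 3 independent libraries. The stromal values of Il17a, Il17f, Il17c, Il22ra1 and Il22ra2 rest on few reads, which limits the differences detectable at this depth.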
